A study of Mus musculus with 9 samples.

Results

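The genes described here had a signal in colonic mucosa that differed between a high calcium diet and the lower calcium diet of the DMH group. The direction was the same whether or not the mice on high calcium carried tumors. A gene was counted as being on one side when its values on all 6 high calcium arrays lay above, or all below, its values on all 3 DMH arrays. Of 21383 features with a value on every array, 4259 met this rule, which is 19.9% of them. A feature is a gene, or a probe where no gene name could be given. High calcium was above DMH for 2335 features (10.9%, of which 1320 had a gene symbol) and below it for 1924 (9.0%, of which 1535 had a symbol). The same values chose these genes, so their differences and p-values from DMH are given as a description. The rule did not use the difference between the high calcium groups with and without tumors itself, though it asks both groups to lie on one side of DMH and so limits where they can be. That difference has its own limma test.

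All 9 arrays held total RNA from the mucosa of the colon, labelled as normal tissue, of mice of the outbred ICR stock. Every mouse, controls included, had received 1,2-dimethylhydrazine (DMH), a carcinogen that induces tumors of the rodent colon, as weekly subcutaneous doses of 20 mg/kg for 20 weeks. The DMH group (3 arrays) ate a diet with 1.24% calcium, and the other groups ate one with 3.0% calcium and were labelled as without tumors (3 arrays) and with tumors (3 arrays). For tumor status the DMH group has just the word control, and age and sex of the mice are not stated in these sources. Nothing in the labels ties each array to its own mouse, so a p-value reflects the spread among arrays alone, and that spread may be technical.

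Calcium enters the colonocyte through the channel Trpv6, is carried by the binding protein calbindin-D9k (S100g) and is regulated by the vitamin D hormone. In the gut lumen calcium binds bile acids and fatty acids, which irritate the mucosa when free. The mucosa has its own circadian clock, in which the activators Arntl and Clock or Npas2 switch on the Per, Cry and Nr1d repressors and the output factors Dbp, Tef and Hlf. Damaged mucosa makes chemokines that draw in neutrophils, and it makes metalloproteinases that cut matrix proteins.

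The tissue label was checked with 10 markers of colonic epithelium (Epcam, Cdh1, Krt8, Krt19, Krt20, Vil1, Cdx1, Cdx2, Car1 and Slc26a3). All 10 were well above background on all 9 arrays, with scaled log2 signals from 0.46 to 8.88. The scaled log2 signal is the log2 of an array's processed intensity minus that array's 75th percentile, and a difference of 1 is a 2-fold change. The 75th percentile intensity ran from 534.2 to 772.6, and 61.05 to 73.74% of probes were well above background. The 3 arrays without tumors shared slide 1 with DMH replicate 1. On slide 2, DMH replicates 2 and 3 lay beside tumor replicates 1 and 2, and tumor replicate 3 was alone on slide 3. Pearson's r across features, which are not independent replicates, was 0.994 to 0.997 in the 5 pairs of 1 group on 1 slide. It was 0.967 to 0.984 in the 4 pairs of 1 group on different slides. In the 7 pairs of different groups on 1 slide it was 0.979 to 0.983, and in the 20 pairs that shared neither 0.958 to 0.975. Tumor replicate 1 was at 0.980 and 0.982 with DMH replicates 2 and 3 on its slide, but at 0.967 with tumor replicate 3. A difference between the high calcium groups is thus also one between slides, and these cannot be told apart except through the DMH arrays on slides 1 and 2. A gene on one side has, by the rule itself, the same direction within slide 1 and within slide 2.

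The counts of genes on one side depended on the scaling and on the DMH arrays. The median difference of all features was 0.08 with the 75th percentile scaling and -0.09 when arrays were centred on their medians. In the first case 54.8% of the features on one side were higher on high calcium. The share was 43.9% after quantile normalization, 47.7% with normexp background correction, 19.5% with median centring and 17.9% in the authors' table of values. Normexp correction here added an offset of 50 to every intensity, which by arithmetic makes the differences of dim genes smaller. A call that ended with it therefore cannot decide whether a dim gene differed. Without DMH replicate 1, 4249 features were higher and 2590 lower. limma, fitted across 21456 features, called 3953 features higher (18.4%) and 2796 lower (13%) at an adjusted p under 0.05. The calls were 1807 lower and 2533 higher without DMH replicate 3.

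**Figure D1:**
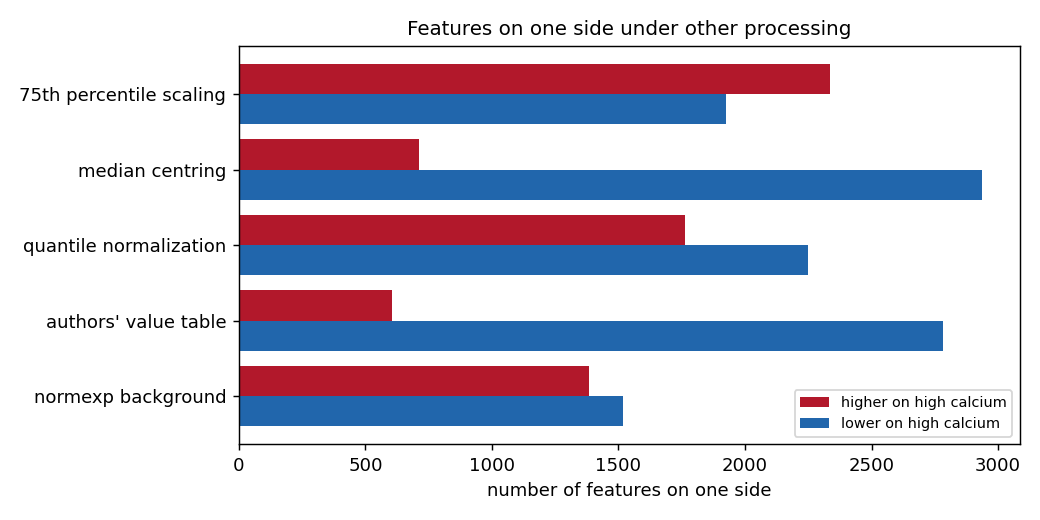
Number of features on one side, higher (red) and lower (blue) on high calcium, under 5 ways of processing the same 9 arrays. The lower genes ran from 1517 to 2938 and the higher genes from 607 to 2335.

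The gap between the nearest arrays of both sides measures how far apart they were. The median gap was 0.13 for higher and for lower genes, so that most stood only just apart. Only 24 features (0.112%) were higher with a gap over 1, against 109 (0.510%) lower, and 23 lower features but 0 higher ones had a gap over 2. All 24 and all 109 were on the same side after quantile normalization, and 18 and 96 were so with normexp correction. Median centring, which left all of them on the same side, could not have moved them. It shifts each array by 1 constant, and these shifts differed too little between arrays to close a gap over 1. At the edge of the rule lay Lman2l, a lectin of the secretory pathway, just inside with a highest high calcium value of 0.32 and a lowest DMH value of 0.32. Rarb, a retinoic acid receptor, lay just outside, with a lowest high calcium value of -1.62 and a highest DMH value of -1.62.

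**Figure D2:**
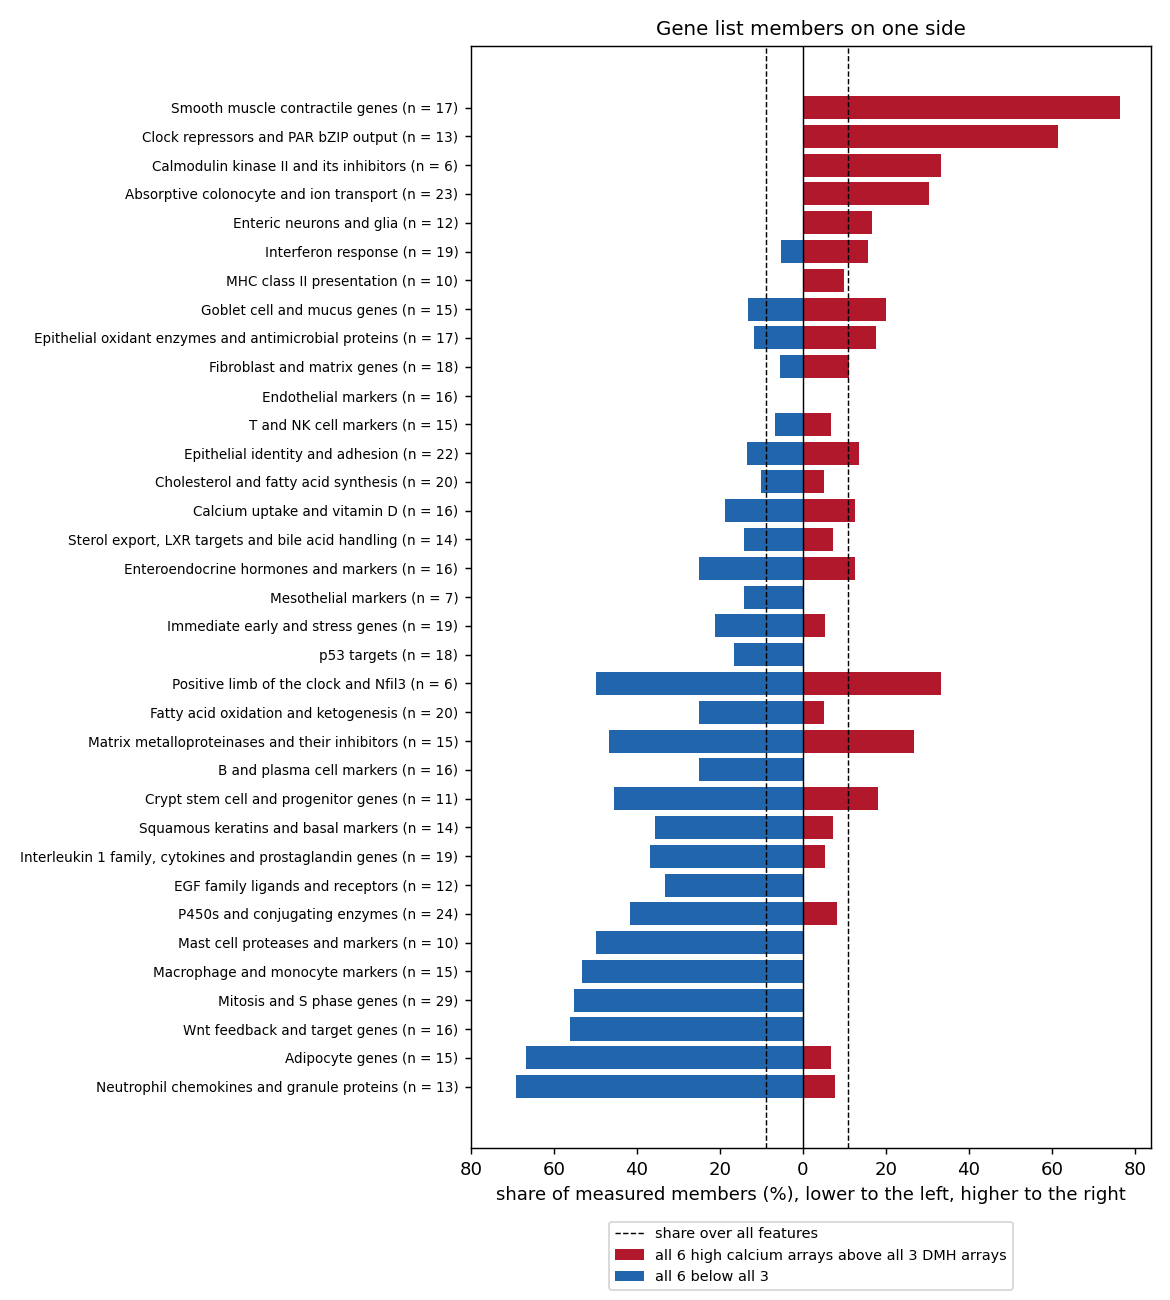
Share of the measured members of each of 35 gene lists that were on one side, higher to the right in red and lower to the left in blue, with n the number measured and dashed lines at the shares over all features (10.9% and 9.0%). Smooth muscle (76.5%) and clock repressor and output genes (61.5%) had the highest shares to the right, and neutrophil (69.2%) and adipocyte genes (66.7%) had the highest to the left.

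Trpv6 and S100g, which carry calcium into and through the colonocyte, lay below DMH on all 6 high calcium arrays. Trpv6, the calcium channel of the apical membrane, had values of -2.75, -2.88 and -2.64 without tumors, -0.90, -0.99 and -1.19 with tumors and -0.08, 0.00 and -0.19 in DMH. The 3 groups did not overlap, with the arrays with tumors in the middle. The mean of both high calcium groups was 3.49-fold below DMH (difference -1.80 ± 0.08, SE, adjusted p = 2.57e-05, limma, n = 3 arrays per group here and below), and within slides the difference was -2.68 (slide 1) and -0.85 (slide 2). S100g, the cytosolic calcium carrier, lay between -0.35 and 0.48 on high calcium and between 0.74 and 0.88 in DMH (-0.71 ± 0.08, adjusted p = 0.000599). When both high calcium groups were fitted as 1 group the calls of Trpv6 and S100g ended (adjusted p = 0.0679 and 0.0594). Stc1, the secreted glycoprotein stanniocalcin 1, ran from -3.89 to -2.58 on high calcium and from -2.37 to -2.20 in DMH (-1.24 ± 0.22, adjusted p = 0.00498), and with normexp correction it differed by -0.49 (adjusted p = 0.0719). In the list of calcium uptake and vitamin D, 3 of 16 measured genes were lower and 2 higher on one side (18.8% and 12.5%, against 9.0% and 10.9% of all features), with a median difference of -0.07. The vitamin D receptor Vdr was not on one side. Its lowest high calcium value and its highest DMH value were both 3.35.

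Repressors and output factors of the clock were higher on high calcium in both tumor groups. Of 13 measured genes 8 were on one side higher (61.5%, against 10.9% of all features) and 0 lower, with a median difference of 1.22, and the same 8 were so after quantile normalization and median centring. The median was 0.93 within slide 1 and 1.32 within slide 2. The hour at which tissue was taken is not stated in these sources, and its part in these values was not tested. Promoter stretches of the 3 members below, which RefSeq provides on build GRCm38.p6, are shown 5′ to 3′ along each gene because the clock's factors bind the motifs printed in capitals, the E-box (CACGTG) in Per1 and Tef and the D-box (TTANGTAA) in Per3.
Per1: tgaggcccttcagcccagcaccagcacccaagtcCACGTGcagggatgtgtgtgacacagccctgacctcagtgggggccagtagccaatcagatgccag
Tef: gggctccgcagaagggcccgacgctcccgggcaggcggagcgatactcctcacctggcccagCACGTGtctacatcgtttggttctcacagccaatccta
Per3: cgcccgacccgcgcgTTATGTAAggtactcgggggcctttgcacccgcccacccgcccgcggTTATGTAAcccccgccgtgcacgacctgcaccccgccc
The Per1 stretch lies at chr11:69098749-69098848 and the Tef stretch at chr15:81811214-81811313, both on the plus strand and covering bases -200 to -101 from the start of a transcript. The Per3 stretch lies at chr4:151044786-151044885 on the minus strand and covers bases -220 to -121. The E-box of Per1 begins at -166 and that of Tef at -138, and the D-boxes of Per3 begin at -205 and -158. Searched on both strands, an E-box was present in 7.15% and a D-box in 2.32% of all 32851 promoter windows of 300 bases. Of the 7 clock repressor and output genes on one side with a window, 2 had an E-box and 1 a D-box. A match of letters is a description and does not show that a factor was bound.

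Among the period repressors, Per2 had the largest difference. It had values of 1.87, 1.76 and 1.85 without tumors, 1.53, 1.47 and 1.53 with tumors, and -0.35, -0.23 and -0.61 in DMH. High calcium arrays stood together far above DMH, and the groups with and without tumors differed little beside that (2.07 ± 0.08, 4.19-fold, adjusted p = 1.27e-05). A second, dimmer probe of Per2 differed by 0.56 (adjusted p = 0.353). Per3 ran from -2.40 to -1.81 on high calcium and was at -3.83, -3.93 and -3.95 in DMH (1.82 ± 0.05, adjusted p = 2.31e-06, normexp 0.91). Per1, with values of 1.09 to 1.42 on high calcium and of -0.09 to 0.12 in DMH, showed no difference by tumor status beyond its error (without minus with tumors -0.02, adjusted p = 0.88). Cry2, a cryptochrome repressor, was higher by 1.18 ± 0.07 and Nr1d2, the receptor REV-ERB beta, by 0.84 ± 0.05. The output factors of the PAR bZIP family were all higher, Tef by 1.58 ± 0.09, Dbp by 1.40 ± 0.14 and Hlf by 1.35 ± 0.21 (normexp 0.66). Dbp, for instance, ran from 3.66 to 4.22 on high calcium and was at 2.93, 2.63 and 2.30 in DMH. Cry1, Nr1d1, Ciart, Bhlhe40 and Bhlhe41 overlapped between the sides. Ciart, another clock repressor, lay at -1.42 to -1.27 with tumors, but at -5.54 to -4.74 without tumors and -6.90 to -3.60 in DMH.

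The activators Arntl and Npas2 moved the other way, but the list of the clock's activating side was split. Of 6 measured genes 3 were on one side lower (50%, against 9.0% of all features) and 2 higher (33.3%, against 10.9%). Arntl (BMAL1), the activator, was at -0.17, -0.30 and -0.31 without tumors, -1.02, -1.11 and -1.0 with tumors and 0.43, 0.26 and 0.38 in DMH (-1.01 ± 0.06, adjusted p = 5.67e-05). Its partner Npas2 was lower by -1.07 ± 0.07, and Nfil3, a repressor that binds the D-box, by -0.93 ± 0.14. Rora, a nuclear receptor of the loop, was on one side higher, by 0.01, but its difference did not pass (0.27 ± 0.10, adjusted p = 0.0854), nor was it on one side after quantile normalization or median centring. The list's other higher gene, not reported here, was called and stayed higher on one side under both of these. Clock itself overlapped, with a difference of -0.05 that was -0.17 within slide 1 and 0.18 within slide 2, and 0.37 when the 3 probes of the gene were averaged.

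**Figure D3:**
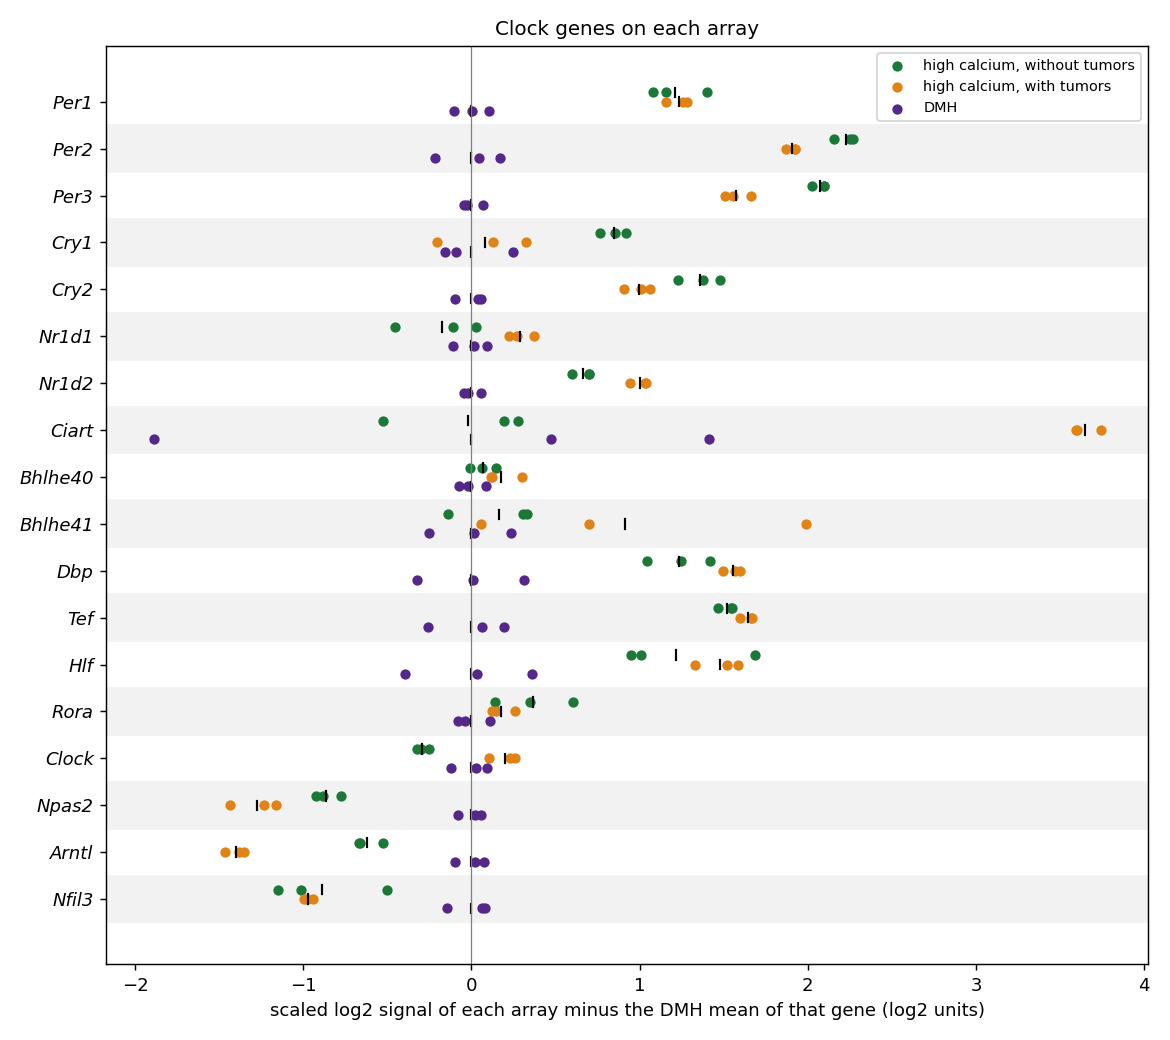
Scaled log2 signal of 18 clock genes on each of the 9 arrays, as the difference from the mean of the DMH arrays. Points are arrays in 3 colours by group and short bars are group means. In 9 genes, all high calcium points lie to the right of all DMH points, and Npas2, Arntl and Nfil3 lie to the left.

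Camk2n1, which inhibits the calmodulin kinase CaMKII, was far higher in both high calcium groups. It was at -0.64 to -0.35 on all 6 high calcium arrays and at -3.99, -2.35 and -3.05 in DMH, a difference of 2.67 ± 0.31 (6.35-fold, adjusted p = 0.000864) and a gap of 1.70. The high calcium arrays lay close together, and the spread was among the DMH arrays. In normexp-corrected values the difference was 1.76. Of the kinase subunits, Camk2b was higher by 0.58 ± 0.09 on one side. Its call ended with median centring (adjusted p = 0.0862) and in the authors' table (adjusted p = 0.074). Camk2a, Camk2d and Camk2g overlapped, though limma called Camk2d (0.26, adjusted p = 0.00662) and Camk2g (0.49, adjusted p = 0.00188) higher. Casp14, a caspase of keratinocyte differentiation, was at 0.06 to 0.57 on high calcium and at -1.71, -1.39 and -1.71 in DMH (1.94 ± 0.09, adjusted p = 2.62e-05). Slc15a2, a peptide transporter, was higher by 1.70 ± 0.08 (normexp 1.01) and Gpr83, a G protein-coupled receptor, by 1.51 ± 0.09. A second probe of Slc15a2 differed by 0.37 (adjusted p = 0.489). Spink1, a secreted inhibitor of trypsin, was at 6.92 to 7.56 against 5.83 to 5.92 (1.35 ± 0.07).

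Abcg5 and Gdpd3 were above DMH on all 6 high calcium arrays, by unequal amounts in the groups with and without tumors. Abcg5, part of the transporter that sends sterols back into the lumen, was at 1.56, 1.43 and 1.64 without tumors, 2.97, 2.85 and 2.62 with tumors and 0.03, 0.51 and -0.08 in DMH (2.03 ± 0.14, 4.08-fold, adjusted p = 0.000112). The arrays with tumors were the highest. Gdpd3, a glycerophosphodiester phosphodiesterase, was at 2.82 to 3.05 without tumors, at -3.24, -0.63 and -2.52 with tumors and at -3.94 to -3.69 in DMH. All 6 arrays were above DMH, yet those with tumors stood far nearer to it, and the call of the mean difference (4.21 ± 0.50, adjusted p = 0.000916) ended with both high calcium groups as 1 group (adjusted p = 0.141). Within slides it differed by 6.60 and 1.96. Taken alone, the group without tumors was above DMH by 6.73 ± 0.58 (adjusted p = 0.000179, limma). The group with tumors had no call (1.69 ± 0.58, adjusted p = 0.0546, limma). Slc26a3, the chloride/bicarbonate exchanger of the colonocyte surface, was at 4.02 to 4.07 without tumors, 3.00 to 3.43 with tumors and 2.73 to 2.86 in DMH, and its call ended in the same way (adjusted p = 0.0899). Of 23 absorptive and ion transport genes 7 were on one side higher (30.4%, against 10.9% of all features) and 0 lower (against 9.0%). Of the 7, 2 were so after quantile normalization and median centring as well.

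Some antagonists of bone morphogenetic proteins, secreted mainly by stromal cells beside the crypts, were higher. Their list was drawn up after values were seen. Of 12 measured, Grem1, Chrdl1 and Chrdl2 were on one side higher (25.0%, against 10.9% of all features), Fst was lower and the other 8 overlapped with DMH. Grem1 was at -3.33 to -2.97 on high calcium and at -4.65, -5.11 and -4.76 in DMH (1.68 ± 0.10, adjusted p = 6.53e-05). It was well above background on 2 of 3 DMH arrays, and its difference with normexp correction was 0.54. Chrdl1 was higher by 1.33 ± 0.07 and Chrdl2 by 1.13 ± 0.09, both with an adjusted p of at most 0.000155. Fst differed by -1.43 ± 0.36 (adjusted p = 0.0212), a call that ended with normexp correction (-0.42, adjusted p = 0.224) and without DMH replicate 2 or 3 (adjusted p = 0.0656 and 0.0835).

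Smooth muscle genes were higher on high calcium, in a size that differed between slides. Of 17 measured, 13 were on one side higher (76.5%, against 10.9% of all features) and 0 lower, with a median difference of 0.86. After quantile normalization and median centring 9 of the 13 were so as well. Des, the filament protein desmin, was at 3.18 to 3.53 on high calcium and at 2.61, 1.99 and 1.80 in DMH (1.22 ± 0.17, adjusted p = 0.00171). Synm, the filament protein synemin, was higher by 1.21 ± 0.20, the myosin heavy chain Myh11 by 1.04 ± 0.20 and Tagln, an actin-binding protein, by 1.03 ± 0.21. DMH replicate 1, on slide 1, lay nearest to high calcium, and the list's median was 0.26 within slide 1 and 1.28 within slide 2. Myocd, a coactivator of muscle genes, was higher by 1.52 ± 0.12, though its second probe differed by 0.39 (adjusted p = 0.606) and its call ended with normexp correction (adjusted p = 0.0663). The log2 of the summed smooth muscle signals was 9.41 to 9.73 without tumors, 9.87 to 10.26 with tumors and 8.58 to 9.33 in DMH, and 1 of 18 listed genes, Synpo2, was not measured. In such bulk samples more cells of a type and more RNA per cell cannot be told apart. The part of the muscle layer's share of each sample in the results given here was not tested. Of 18 fibroblast and matrix genes 2 were on one side higher (11.1%, against 10.9% of all features). Of the same genes 1, Pdgfra (-0.47), was lower (5.56%, against 9.0%). By limma 10 of them were called higher and 2 lower, where 18.4% of all features were called higher and 13% lower. Of 16 endothelial markers 0 were on one side in either direction.

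Chemokines that attract neutrophils were lower, Cxcl5 by the widest gap of any gene. Of 13 genes of neutrophil recruitment and granules 9 were on one side lower (69.2%, against 9.0% of all features), with a median difference of -2.55 that was -2.67 within slide 1 and -1.84 within slide 2. With the 3 members that were not above background in a group set at their bounds, the median was -1.78. Fpr2, a formyl peptide receptor named here because it was the only one higher (0.32), overlapped after quantile normalization and median centring. The last 100 bases before the starts of 3 chemokine genes are shown because these relatives carry the same site, with the kappaB site, which NF-kappaB proteins bind, in capitals.
Cxcl1: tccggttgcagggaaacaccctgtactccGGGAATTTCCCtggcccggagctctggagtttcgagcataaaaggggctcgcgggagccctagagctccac
Cxcl2: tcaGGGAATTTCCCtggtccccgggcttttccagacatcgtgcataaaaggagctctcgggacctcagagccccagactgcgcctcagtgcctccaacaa
Cxcl3: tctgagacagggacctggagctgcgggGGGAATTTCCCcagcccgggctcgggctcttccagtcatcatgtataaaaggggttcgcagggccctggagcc
The stretches lie on the plus strand of the same chromosome, at chr5:90891145-90891244 for Cxcl1, chr5:90903799-90903898 for Cxcl2 and chr5:90786001-90786100 for Cxcl3 (GRCm38.p6, RefSeq). In each, matches on both strands overlapped and are capitalised as one, beginning at -71, -97 and -73. A kappaB site was present in 4.51% of all promoter windows, in 5.57% of windows of lower genes and in 5.94% of those of higher genes. Of the 9 neutrophil genes on one side that had a window, 3 held one. The share was the same, 3 of 9, in the smooth muscle genes on one side, which were higher.

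Cxcl5, an epithelial chemokine for neutrophils, was at -4.58, -4.30 and -4.69 without tumors, -3.14, -3.16 and -2.73 with tumors and 0.96, 0.96 and 1.13 in DMH. Its gap of 3.69 was the widest of all genes, and the arrays with tumors were the nearer to DMH (-4.78 ± 0.13, 27.5-fold, adjusted p = 2e-06). With normexp correction the difference was -3.32. Cxcl3 was at -3.73, -3.52 and -3.25 in DMH but dim, that is not well above background, on all 6 high calcium arrays, which makes it at least 3.56-fold lower, and Cxcl2 was likewise at least 2.71-fold lower. Such a bound sets the DMH mean against a high calcium mean in which each dim array stands no lower than its dimmest detected probe. With normexp correction, whose offset shrinks the differences of dim genes, the log2 differences of Cxcl3 and Cxcl2 were -0.67 and -0.41, smaller than these bounds. Cxcl1 was at -5.20 to -3.61 against -2.88 to -2.56 (-1.78 ± 0.35, adjusted p = 0.00784). With normexp correction the calls of Cxcl1, Cxcl2 and Cxcl3 ended (adjusted p = 0.0643, 0.195 and 0.0587), and Cxcl2 and Cxcl3 overlapped.

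Proteins that neutrophils and stressed epithelium release were lower as well. S100a9, which with S100a8 forms calprotectin, was at -2.31 to -2.07 without tumors, -1.38 to -1.13 with tumors and 1.38 to 1.45 in DMH (-3.10 ± 0.08, 8.54-fold, adjusted p = 2e-06). S100a8, its partner, could not be told from background without tumors and was at least 8.29-fold lower on high calcium, with a difference of -1.26 with normexp correction. Lcn2, lipocalin 2, which withholds iron from bacteria, was at -4.97 to -4.58 without tumors, -2.65 to -2.36 with tumors and -1.04 to -0.59 in DMH (-2.89 ± 0.13, normexp -1.51). Ltf, lactoferrin, was lower by -2.55 ± 0.19 (normexp -0.98). Csf3r, the receptor of a neutrophil growth factor, was lower by -0.96 ± 0.09, a call that ended with normexp correction (adjusted p = 0.0706). The other members of the list, Mpo, a granule peroxidase, Fpr1, a formyl peptide receptor, and Trem1, a receptor of myeloid cells, overlapped with DMH and had no call (-0.31, -0.31 and -0.38, adjusted p = 0.0889, 0.218 and 0.405).

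Of 19 interleukin 1, cytokine and prostaglandin genes 7 were on one side lower (36.8%, against 9.0% of all features) and 1 higher (5.26%, against 10.9%). The cytokine Il1b was at -1.49 to -0.95 on high calcium and -0.20, -0.01 and 0.06 in DMH (-1.18 ± 0.10, adjusted p = 0.000268). Tnf was at -1.72 to -1.66 on all 6 high calcium arrays and at -0.98 to -0.94 in DMH, with almost no spread within either side (-0.74 ± 0.04). Ptgs2, the inducible cyclooxygenase, was lower by -1.36 ± 0.12 and Ptges, which makes prostaglandin E2, by -0.51 ± 0.05. Ptgs2 did not differ by tumor status beyond its error (-0.13, adjusted p = 0.51), and its diet difference was -0.75 with normexp correction. Il33, an alarmin of epithelium and stroma, was at -1.86 to -1.85 without tumors, -0.86 to -0.62 with tumors and -0.43 to -0.27 in DMH, and its call ended with both groups as 1 group (adjusted p = 0.154). Within slides Il33 differed by -1.42 and -0.28. Il1rl1, the receptor of Il33, was at -1.39 to -0.90 against 0.79 to 1.04 (-1.97 ± 0.10, adjusted p = 3.65e-05), with no difference by tumor status beyond its error (0.18, adjusted p = 0.25).

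Secreted metalloproteinases such as Mmp10 and Mmp13 were lower, and the inhibitor Timp3 was higher. Of 15 metalloproteinase and inhibitor genes 7 were on one side lower (46.7%, against 9.0% of all features) and 4 higher (26.7%, against 10.9%). Of the 4 higher genes, Timp3 alone was so after both quantile normalization and median centring. The last 100 bases before the starts of 3 of the lower genes are shown with the AP-1 site (TGANTCA), bound by Fos and Jun proteins, in capitals.
Mmp7: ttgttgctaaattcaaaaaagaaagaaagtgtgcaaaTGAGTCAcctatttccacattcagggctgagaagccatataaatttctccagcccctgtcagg
Mmp10: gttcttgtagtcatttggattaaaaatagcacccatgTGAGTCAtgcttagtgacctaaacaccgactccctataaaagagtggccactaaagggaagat
Mmp13: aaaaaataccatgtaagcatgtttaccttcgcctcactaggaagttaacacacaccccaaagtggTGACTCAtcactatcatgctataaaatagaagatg
They lie on the plus strand at chr9:7691990-7692089 for Mmp7, chr9:7502242-7502341 for Mmp10 and chr9:7272414-7272513 for Mmp13 (GRCm38.p6, RefSeq), and the sites begin at -63, -63 and -35. An AP-1 site was present on either strand in 7.81% of all windows and in 6.43% of windows of lower genes. Of the 9 metalloproteinase and inhibitor genes on one side with a window, 4 held one.

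Mmp10, stromelysin 2, was at -0.81 to -0.52 without tumors, -0.28 to -0.20 with tumors and 2.56 to 2.70 in DMH (-3.08 ± 0.07, 8.44-fold, adjusted p = 2e-06). Mmp13, a collagenase, was at -3.42 to -2.78 against -0.19 to 0.08 (-3.02 ± 0.15, adjusted p = 2.94e-05), with no difference by tumor status beyond its error (0.25, adjusted p = 0.27). Mmp7, matrilysin of epithelial cells, was at -0.52 to -0.45 without tumors, 1.41 to 1.58 with tumors and 3.11 to 3.22 in DMH. The 3 groups stood well apart (-2.66 ± 0.05), and they had the same order in the gelatinase Mmp9 (-2.08 ± 0.08, normexp -1.26). Within slides Mmp7 differed by -3.63 and -1.63 and Mmp9 by -2.71 and -1.34. Mmp3, stromelysin 1, was lower by -0.68 ± 0.13, a call that ended with normexp correction (adjusted p = 0.0664). Timp3, an inhibitor bound to the matrix, was higher at 2.52 to 2.89 against 1.88 to 2.09 (0.74 ± 0.09).

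**Figure D4:**
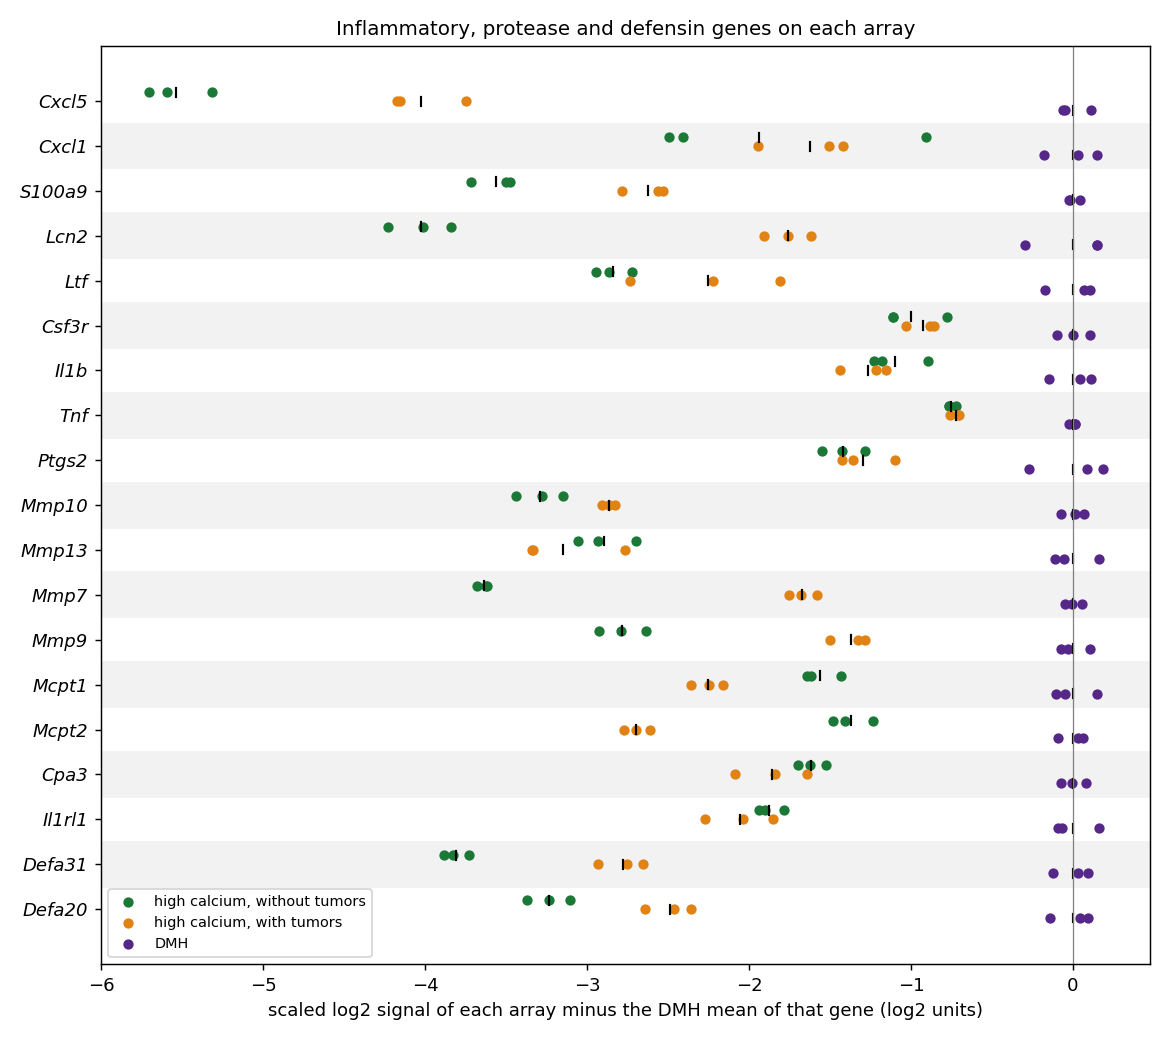
Scaled log2 signal of 19 inflammatory, protease, mast cell and defensin genes on each of the 9 arrays, as the difference from the mean of the DMH arrays, with colours for groups and short bars for group means. No high calcium point overlaps a DMH point. Cxcl5, Lcn2, Mmp7 and Mmp9 lie lower without tumors, and Mcpt1 and Mcpt2 lie lower with tumors.

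Mast cell genes were lower in both groups. Of 10 measured 5 were on one side lower (50%, against 9.0% of all features) and 0 higher (against 10.9%). The log2 of their summed signals was 2.29 to 2.48 without tumors, 2.31 to 2.44 with tumors and 3.27 to 3.52 in DMH. Tpsab1 and Kit, defining markers of mast cells, were not measured. Mcpt1 and Mcpt2, proteases of mucosal mast cells, were lowest with tumors. Mcpt2 was at -1.86 to -1.61 without tumors, -3.15 to -2.99 with tumors and -0.47 to -0.31 in DMH (-2.03 ± 0.07, adjusted p = 7.69e-06). Mcpt1 was lower by -1.91 ± 0.08, the carboxypeptidase Cpa3 by -1.74 ± 0.10, the connective tissue protease Mcpt4 by -1.48 ± 0.19 and Hdc, which makes histamine, by -1.39 ± 0.08. With normexp correction Cpa3 differed by -0.94 and Hdc by -0.72. Of 15 macrophage and monocyte genes 8 were lower (53.3%, against 9.0% of all features). Of the 8, 6 were so after quantile normalization and median centring as well, and the list's median was -0.18. Adgre1, the F4/80 antigen, was lower by -0.61 ± 0.06. Itgam, an integrin of myeloid cells, was lower by -0.81 ± 0.07 but differed by -0.09 with normexp correction (adjusted p = 0.75). Macrophage genes summed to 5.40 to 5.49 without tumors, 5.25 to 5.40 with tumors and 5.55 to 5.59 in DMH. T and NK cell genes (1 of 15 lower, 1 higher) stood near the background, and so did MHC class II genes (0 of 10 lower, 1 higher).

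Spp1, Arg1 and Tnfrsf11b were lower as well. Spp1 and Arg1 were singled out after their values were seen. Spp1, osteopontin, was at -0.27 to -0.05 without tumors, 0.51 to 0.76 with tumors and 2.43 to 2.63 in DMH (-2.27 ± 0.08, adjusted p = 7.69e-06). Arg1, arginase 1, was at -4.95 to -4.61, -2.92 to -2.71 and -1.27 to -1.04 in the same order (-2.65 ± 0.09, normexp -1.31). Tnfrsf11b, the decoy receptor osteoprotegerin, was at -0.51 to -0.45, 1.69 to 1.89 and 3.02 to 3.18 (-2.42 ± 0.06). Its call ended with both groups as 1 group (adjusted p = 0.063).

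Adipocyte genes were lower, with wide spread among high calcium arrays. Of 15 measured 10 were on one side lower (66.7%, against 9.0% of all features) and 1 higher (6.67%, against 10.9%), with a median difference of -1.59. Adipoq, the fat cell hormone adiponectin, was at -6.25, -3.92 and -4.88 without tumors, -4.31, -4.26 and -1.62 with tumors and 1.05, 0.94 and 1.14 in DMH. The DMH arrays agreed closely, and replicate 3 with tumors was nearest to them (-5.25 ± 0.71, adjusted p = 0.00157). Car3, a carbonic anhydrase abundant in fat, was lower by -4.70 ± 0.62, resistin (Retn) by -3.31 ± 0.59, the lipid droplet protein Plin1 by -3.24 ± 0.36, the lipase Lpl by -2.75 ± 0.47 and the fatty acid carrier Fabp4 by -1.42 ± 0.17. Their normexp values were smaller for Adipoq (-3.34), Car3 (-3.74), Plin1 (-1.43) and Retn (-1.60). The log2 of the summed adipocyte signals was 4.69 to 5.21 without tumors, 5.18 to 5.59 with tumors and 6.18 to 6.34 in DMH. Lep, Pck1 and Aqp7 of the list were not measured. The part of fat tissue in the samples in these and other results was not tested.

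Of 24 measured enzymes that act on foreign compounds 10 were on one side lower (41.7%, against 9.0% of all features) and 2 higher (8.33%, against 10.9%). By limma 10 were called lower and 6 higher, where 13% of all features were called lower and 18.4% higher. Cyp2e1, a P450 known for oxidising DMH metabolites, was at -2.83, -2.64 and -2.43 in DMH but dim on all 6 high calcium arrays, so at least 6.48-fold lower. Cyp1b1, a P450 of extrahepatic tissues, was likewise at least 2.41-fold lower, but with normexp correction it differed by -0.28 (adjusted p = 0.411) and overlapped. Cyp2e1 differed by -0.97 with normexp correction, below its bound. Ugt2b36, which joins glucuronic acid to its substrates and was well above background on 4 of 6 high calcium arrays, was lower by -2.47 ± 0.48 (normexp -0.96), and Nqo1, a quinone reductase, was lower by -0.81 ± 0.10. In a list of fatty acid oxidation 5 of 20 genes were lower and 1 higher (25.0% and 5.0%, against 9.0% and 10.9% of all features).

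Of 6 alpha-defensins measured, antimicrobial peptides of Paneth cells, 5 were on one side lower (83.3%, against 9.0% of all features), with a median difference of -2.70. Their list was chosen after values were seen. Their sequences are nearly identical, so which member a probe measured is uncertain. Defa31 was at -0.76 to -0.60 without tumors, 0.19 to 0.47 with tumors and 3.00 to 3.22 in DMH (-3.30 ± 0.08, 9.83-fold, adjusted p = 2e-06), and Defa20 differed by -2.86 ± 0.09. Reg3g, an antibacterial lectin, was lower by -1.20 ± 0.17, while the serum amyloids Saa1 and Saa2 were higher by 0.88 ± 0.09 and 0.82 ± 0.06. Of 14 squamous and basal genes 5 were lower (35.7%, against 9.0% of all features), Casp14 was the 1 higher and 8 overlapped with DMH. Krt14, a keratin of basal cells, was at -0.63 to -0.35 without tumors, 0.94 to 1.06 with tumors and 1.96 to 2.11 in DMH (-1.77 ± 0.07, within slides -2.60 and -1.01). Krt13, a keratin of moist squamous epithelium, differed by -0.68 ± 0.09. Dsg3, a squamous desmosome protein well above background on 2 of 6 high calcium arrays, differed by -2.19 ± 0.22. Sprr2d, added after its values were seen and well above background on 1 of the 6, was at least 3.93-fold lower. With normexp correction they differed by -0.52 and -0.53, and both calls ended (adjusted p = 0.122 and 0.0659). The log2 of the summed squamous signals was 3.49 to 3.54 without tumors, 3.93 to 4.12 with tumors and 4.11 to 4.26 in DMH, so that the tumor group reached DMH. Trp63, Ivl, Sprr1b and Sprr3 of that list were not measured.

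Wnt targets were lower and came in a graded order. Of 16 measured 9 were on one side lower (56.2%, against 9.0% of all features) and 0 higher, 8 of the 9 also after quantile normalization and median centring. The list's median was -0.47, with -0.61 within slide 1 and -0.27 within slide 2. Wif1, a secreted Wnt inhibitor, was at -1.02 to -0.82 without tumors, 0.59 to 1.01 with tumors and 2.19 to 2.47 in DMH (-2.37 ± 0.11, adjusted p = 2.25e-05). Sp5, a transcription factor that Wnt signals induce, was at -2.27 to -2.08 without tumors, 0.25 to 0.47 with tumors and 0.91 to 1.00 in DMH. Here the tumor group stood much nearer to DMH, as it did for Notum, which inactivates Wnt proteins, and Nkd1, a feedback inhibitor inside the cell. Fitted as 1 group, high calcium no longer passed for Sp5, Notum and Nkd1 (adjusted p = 0.181, 0.204 and 0.271). Within slide 2 their differences were -0.53, -0.38 and -0.19, against -3.11, -3.06 and -2.06 within slide 1. Cd44, an adhesion receptor, was lower by -0.82 ± 0.04 and the growth regulator Myc by -0.49 ± 0.05.

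Of 29 mitosis and S phase genes 16 were on one side lower (55.2%, against 9.0% of all features) and 0 higher (against 10.9%). All 16 were so after quantile normalization and median centring. The list's median was -0.60, or -0.78 within slide 1 and -0.29 within slide 2. Top2a, a topoisomerase of dividing cells, was at -1.24 to -0.92 on high calcium and -0.40, -0.22 and -0.05 in DMH (-0.88 ± 0.09, adjusted p = 0.000421), with no difference by tumor status beyond its error (0.13, adjusted p = 0.33). Rrm2, which makes deoxynucleotides, was lower by -0.66 ± 0.05 and the mitotic kinase Cdk1 by -0.57 ± 0.04, with no call by tumor status (adjusted p = 0.23 and 0.661). Mki67, the proliferation antigen, was at 2.63 to 2.89 without tumors, 3.12 to 3.34 with tumors and 3.52 to 3.64 in DMH, and its call ended with both groups as 1 group (adjusted p = 0.058). Of 19 immediate early and stress genes 4 were lower and 1 higher (21.1% and 5.26%, against 9.0% and 10.9% of all features). Ier3, a stress-induced survival gene, was lower by -1.39 ± 0.12, Egr1 by -0.89 ± 0.07 and Fos by -0.41 ± 0.08, the last pair encoding transcription factors that growth signals induce. Cdx2, the homeobox factor of intestinal identity, was at 3.34 to 3.41 without tumors, 2.41 to 2.69 with tumors and 4.06 to 4.20 in DMH (-1.15 ± 0.07, adjusted p = 6.53e-05). Among the 10 tissue markers it was the only one lower on one side, and Slc26a3 the only one higher.

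Hormone genes of enteroendocrine cells did not move together. Of 16 measured 4 were lower (25.0%, against 9.0% of all features) and 2 higher (12.5%, against 10.9%). By limma 4 were called lower and 5 higher, where 13% of all features were called lower and 18.4% higher. The log2 of their summed signals was higher on high calcium, at 7.43 to 7.45 without tumors, 7.09 to 7.26 with tumors and 6.90 to 7.04 in DMH. Pyy, peptide YY, was higher by 0.62 ± 0.07. Nts, neurotensin, was at -3.20, -0.39 and -2.06 without tumors, -2.24, -2.11 and -1.44 with tumors and 1.39, 1.07 and 1.24 in DMH (-3.14 ± 0.55, adjusted p = 0.00467). The DMH arrays were the highest and closest together. Cck, cholecystokinin, was lower by -0.66 ± 0.07 and Pcsk1, which processes prohormones, by -0.78 ± 0.10, with a second Pcsk1 probe at -0.47 (adjusted p = 0.0669). Cacna1f, a subunit of a voltage-gated calcium channel, was well above background on all 3 DMH arrays but on 1 of 6 high calcium arrays, and it was at least 6.13-fold lower (normexp -0.84). Sfrp2 and Postn, proteins secreted by stromal cells, were higher by 0.89 ± 0.06 and 0.73 ± 0.08. Sfrp2 was picked after its values were seen.

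The high calcium groups also differed from each other in many of these genes. Between them limma called 47.7% of all features (20.0% higher and 27.8% lower without tumors), 37.8% of the genes higher on high calcium and 40.0% of those lower. The rule limits the position of both groups against DMH, so these shares are a description and are not set against each other. Of the 109 lower genes with a gap over 1, 49 were lower and 8 higher without tumors than with, and 52 passed in neither direction. Over all genes on one side, 638 were higher and 1015 lower without tumors, and 375 and 667 with slide as a block. Of the 24 higher genes with a gap over 1, 18 passed in neither direction, 4 were higher and 2 lower without tumors. Genes with no call by tumor status included Per1, Tef, Camk2n1, Casp14, Slc15a2, Gpr83, Grem1, Cxcl3, Il1b, Tnf, Ptgs2, Mmp13, Il1rl1, Cpa3, Top2a and Cck. No call does not show that the groups were alike.

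**Figure D5:**
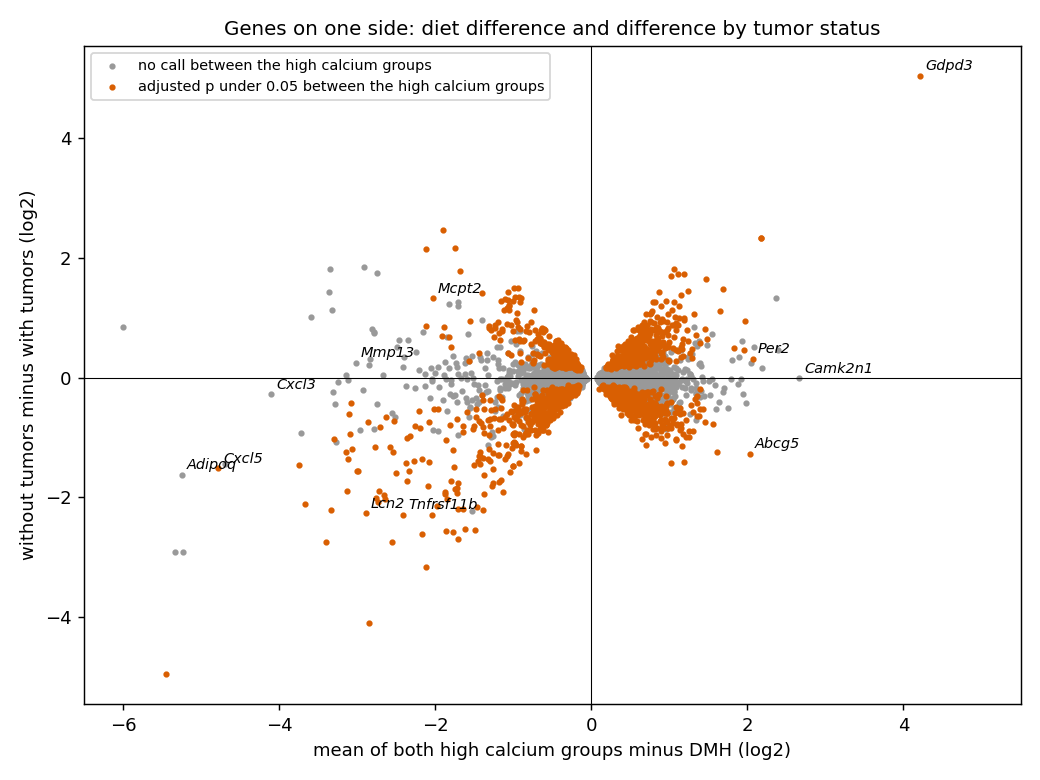
Each point is 1 of the 4259 features on one side, placed by its difference from DMH (horizontal, log2) and by the difference without minus with tumors (vertical, log2), with an adjusted p under 0.05 between the high calcium groups in orange. The rule itself narrows the points toward the centre. Camk2n1 and Per2 lie near the horizontal line, whereas Gdpd3 lies far above it and Lcn2 and Tnfrsf11b far below.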

How the data were processed

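RNA of 9 samples was hybridised to 1-colour Agilent arrays. The deposited scanner files hold a processed intensity per probe, already background-corrected per the file headers, and flags for signal well above background. Agilent Feature Extraction 10.5.1.1 made them, per the submitters' processing notes. The authors' deposited table of values is on a log2 scale and equals the log2 intensity minus each array's median, which was found by setting it against the scanner values, and its column medians ran from 2.36 to 2.80 over the probes listed.

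Here log2 intensity was scaled by subtracting each array's 75th percentile over probes that are not controls. Of 41174 probes, 27192 were kept because some group had all 3 of its arrays well above background. The brightest kept probe stood for a gene, which left 14190 named genes and 7266 unnamed probes. Gene symbols are those of RefSeq, found by matching the accession that the scanner files give for each probe to RefSeq transcripts. Probes whose accession matched no single RefSeq symbol stayed unnamed.

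limma 3.58.1 (R 4.3.3, lmFit and eBayes) was fitted with 3 group means over all 21456 features, with Benjamini-Hochberg adjustment and a threshold of 0.05. Errors are standard errors of the fit. Simple list counts and medians stand in place of set tests. The scripts were tested on simulated data, where 76.1% of genes changed by 1 log2 unit were called and 0.0708% of unchanged genes were. In the same simulation 2.48% of unchanged genes lay on one side. The simulated arrays had independent noise around a shared mean per gene, with no slide effect and no difference between the high calcium groups. That share therefore does not give the share to be met by chance on the real arrays.

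Replicate numbers were not used to pair the samples in the main fit. Deviations of same-numbered arrays from their group means correlated at -0.564 to 0.221, with 2 of 9 pairs over 0.1. Slides also enter these deviations, so they cannot decide whether same-numbered arrays were paired. The genes on one side and the gene lists were chosen with earlier results of these data known. Genes named in the text are a choice from 225 that met a fixed rule (the largest differences and gaps, the leading members of each list, the largest and smallest differences by tumor status, all clock and calcium genes, and the genes at the edge of the rule), and some of them are not reported here. Chrdl2, Fst, Sfrp2, Tagln, Tnf, Ptges, Plin1, Lpl, Fabp4, Nqo1, Sprr2d, Spp1, Arg1, Cd44, Myc, Rrm2, Cdk1 and Mki67 were added after their values were seen. Alternatives covered background correction, scaling, filters, probes, the fit, slides and leaving out arrays. Python 3.11.15 and pandas 2.3.3 were used for summaries, and matplotlib 3.10.9 for plots.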

Additional observations from a re-analysis of the deposited data

Results flagged for a closer look

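Some genes below or above DMH on all high calcium arrays also differed by at least 1 log2 unit between the high calcium groups, by limma's test of that difference. All values that follow are without minus with tumors. The difference was -1.73 for Trpv6, -1.51 for Cxcl5, -1.90 for S100a8, -2.27 for Lcn2 and -1.15 for Il33. It was -1.97 for Mmp7, -1.41 for Mmp9, -1.03 for Defa31 and -1.49 for Krt14. Of the Wnt genes, Wif1 differed by -1.74, Sp5 and Notum by -2.57 each and Nkd1 by -1.91. Tnfrsf11b differed by -2.29, Arg1 by -2.02, Abcg5 by -1.27 and Cacna1f by -1.46, the last of which lost its call with slide as a block (adjusted p = 0.068). The differences of Gdpd3 (5.04) and Mcpt2 (1.32) had the opposite sign. All 19 kept their sign with slide as a block, and 18 were called. Among genes with a gap over 1, 4 of the 24 higher ones were higher and 2 lower without tumors, and 8 of the 109 lower ones were higher and 49 lower. The parts of slide and of tumor status in these differences cannot be told apart on the arrays of the high calcium groups alone.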

How the results depend on the processing

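Counts of genes on one side were 2335 higher and 1924 lower, limma called 3953 higher and 2796 lower, and by tumor status 638 of the genes on one side were higher and 1015 lower without tumors. With normexp correction the higher count on one side was 1384, the calls 1788 and 1431, and the counts by tumor status 302 and 472. In the authors' table they were 607, then 666 and 1532, then 201 and 332. With median centring they were 713 and 2938 on one side, 688 and 1472 called, and 207 and 352 by tumor status. Array weights gave 6606 and 4261 calls, and both high calcium groups as 1 group gave 1177 and 769. With slide as a block the counts by tumor status were 375 and 667. Within slide 1, 8832 were higher and 7746 lower on one side, and within slide 2, 9611 and 6962, where fewer arrays make the rule easier to meet. With DMH replicate 1 and tumor replicate 3 both left out, 4687 were higher on one side, 6335 were called higher and 3753 lower, and 1590 and 1940 differed by tumor status. An unadjusted p under 0.05 with a 2-fold difference gave 264 and 384 calls, and 55 and 111 by tumor status. The replicate block gave 3115 and 2196 calls, and 560 and 895 by tumor status. Leaving out 1 array gave 2495 to 4249 higher and 2006 to 2590 lower on one side, 2533 to 4442 and 1807 to 3210 calls, and 556 to 1062 and 877 to 1691 by tumor status. The highest one-side and tumor status counts came without DMH replicate 1, and the lowest calls without DMH replicate 3.

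Of 112 single genes followed through the alternatives, Clock changed direction (0.37, adjusted p = 0.0153, with a gene's probes averaged). Calls were lost for 14 genes with both groups as 1 group, for 14 with normexp correction, for 5 with median centring and for 2 under the replicate block. A fit of both groups as 1 counts any difference between them as spread. The cause for each gene was not tested. Genes dim in 1 group are limited by background, and 3 arrays a group, on 3 slides, limit the precision throughout.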

Other observations

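The shares of all features on one side, 10.9% higher and 9.0% lower, stand beside the counts of the gene lists that follow. Of 16 B and plasma cell markers 4 were on one side lower and 0 higher (median difference -0.32), of 12 EGF family ligands and receptors 4 and 0 (-0.21), and of 11 crypt stem and progenitor genes 5 and 2 (-0.14). Of 18 p53 targets 3 were lower and 0 higher, and of 28 Hox genes, a list chosen after values were seen, 6 were lower and 1 higher. Of 22 epithelial identity and adhesion genes 3 were higher and 3 lower, of 15 goblet cell and mucus genes 3 and 2, and of 17 epithelial oxidant and antimicrobial genes 3 and 2. Sterol genes stood near the shares of all features, with 1 of 14 export and bile acid genes and 1 of 20 synthesis genes higher, and 2 lower in each list. Of 19 interferon response genes 3 were higher and 1 lower, but 0 of the 3 stayed so after quantile normalization and median centring. The same held for the 2 of 12 enteric nerve and glia genes that were higher, and of 7 mesothelial markers 1 was lower.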
